A study of Mus musculus with 4 samples.

Results

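The genes described here are 35 genes of mitosis and the G2/M transition: the mitotic cyclins and their kinase Cdk1, the mitotic kinases, the transcription factor Foxm1, and the genes of the spindle checkpoint, the kinetochore, the spindle, cytokinesis and mitotic proteolysis. They were chosen by function, as genes that report on the steady-state self-renewal of macrophages. A gene was measured where a probe set of the array carried its symbol and no other, which held for 34 of the 35, out of 19946 genes measured in all. Ccnb1, which encodes the main mitotic B-type cyclin, was not analysed here.

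RNA came from alveolar macrophages (AM), the resident phagocytes of the lung airspaces, washed out by bronchoalveolar lavage from mice of 8 to 10 weeks without any treatment. WT AM came from C57/Blk6 mice, and TREM2-/- AM from mice without functional TREM2, a surface receptor of myeloid cells, carrying the mutation on a background that had been backcrossed 10 times to C57/Blk6. Each genotype had 2 arrays, and each array held the RNA of pooled mice, the number per pool not being given. The TREM2 mutation was a germline one. By the study's methods, WT mice had been purchased, all mice were bred in the same animal facility, and mice were matched for age and sex. Littermates were not stated to have been used, so passenger alleles and other differences between the lines cannot be told apart from the loss of TREM2. Values are log2 signals on Affymetrix Gene 1.0 ST arrays, and a difference is always the mean of the TREM2-/- AM minus the mean of the WT AM on that scale.

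Most macrophages of the healthy lung are maintained by division of the resident cells rather than by blood monocytes, so a small share of cycling cells is a normal feature of AM. In a dividing cell the mitotic genes are switched on late, from late S phase to mitosis. By then the repressive DREAM complex on their promoters has come apart, and its MuvB core binds B-Myb and Foxm1. The switch works through the cell cycle genes homology region (CHR), a short element near the transcription start site, often with CCAAT boxes bound by NF-Y a short way upstream. Genes of DNA synthesis are switched on earlier, at the G1/S transition, mainly by E2F factors. In RNA of a whole population, fewer cycling cells and less RNA of these genes per cell cannot be told apart.

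The letters of both elements were common in the promoters of the 35 genes. RefSeq promoter windows (GRCm38.p6, 250 bases before to 50 bases after the start of the gene) were at hand for 30 of the 35 genes, and for genes with several windows the window listed first was used. The letters of the CHR, TTTGAA or TTTAAA on either strand, stood in 24 of the 30 windows (80%), against 27.8% of all 27025 windows. CCAAT on either strand stood in 22 (73.3%), against 37.9%, and 20 (66.7%) held both, against 10.9%. The E2F element searched, TTTCCCGC on either strand, was in 0 of the 30, and in 1.11% of all windows. Only this exact form was searched and it is rare, so its count does not show that E2F elements were absent. All of these counts are matches of letters and not binding sites. The windows below belong to the 3 genes with the highest and the 3 with the lowest difference between genotypes among those with a window, and were chosen to show how alike or unlike the promoters at both ends of the range are. Capitals mark the CHR and CCAAT letters on either strand, which overlap where CCAAT meets its own reverse complement in Ube2c, and each sequence runs 5′ to 3′ on the strand of the gene.
Cenpe, chr3:135212313-135212612, plus strand: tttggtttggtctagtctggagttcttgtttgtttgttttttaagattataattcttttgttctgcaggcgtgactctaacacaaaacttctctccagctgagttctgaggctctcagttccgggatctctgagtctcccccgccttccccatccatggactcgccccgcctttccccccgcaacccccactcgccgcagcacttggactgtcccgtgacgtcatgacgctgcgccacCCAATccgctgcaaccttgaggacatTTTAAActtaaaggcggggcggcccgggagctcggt
Ube2c, chr2:164769679-164769978, plus strand: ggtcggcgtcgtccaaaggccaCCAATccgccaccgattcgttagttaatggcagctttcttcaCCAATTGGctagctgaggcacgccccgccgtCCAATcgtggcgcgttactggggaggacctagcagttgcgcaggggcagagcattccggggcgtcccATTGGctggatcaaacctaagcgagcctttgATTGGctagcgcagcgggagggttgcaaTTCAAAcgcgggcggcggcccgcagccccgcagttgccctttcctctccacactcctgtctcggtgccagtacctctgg
Ccnb2, chr9:70421505-70421804, minus strand: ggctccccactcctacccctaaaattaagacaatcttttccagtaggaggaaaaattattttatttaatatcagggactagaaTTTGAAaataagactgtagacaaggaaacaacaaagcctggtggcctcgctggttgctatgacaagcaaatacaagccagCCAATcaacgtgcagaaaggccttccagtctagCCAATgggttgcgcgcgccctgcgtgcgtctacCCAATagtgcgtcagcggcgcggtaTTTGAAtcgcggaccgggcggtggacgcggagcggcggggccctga
Cdk1, chr10:69352863-69353162, minus strand: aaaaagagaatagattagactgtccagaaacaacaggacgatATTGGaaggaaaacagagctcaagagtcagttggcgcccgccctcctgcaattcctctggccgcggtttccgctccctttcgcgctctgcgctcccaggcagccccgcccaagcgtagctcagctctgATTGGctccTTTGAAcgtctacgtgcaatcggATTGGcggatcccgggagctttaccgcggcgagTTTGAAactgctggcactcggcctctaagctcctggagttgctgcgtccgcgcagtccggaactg
Melk, chr4:44300667-44300966, plus strand: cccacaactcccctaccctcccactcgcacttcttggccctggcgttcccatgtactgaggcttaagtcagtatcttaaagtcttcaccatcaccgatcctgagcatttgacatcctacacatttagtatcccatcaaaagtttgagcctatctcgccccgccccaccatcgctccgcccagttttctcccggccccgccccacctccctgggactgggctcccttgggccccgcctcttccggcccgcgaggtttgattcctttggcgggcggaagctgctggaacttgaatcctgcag
Mad2l1, chr6:66534971-66535270, plus strand: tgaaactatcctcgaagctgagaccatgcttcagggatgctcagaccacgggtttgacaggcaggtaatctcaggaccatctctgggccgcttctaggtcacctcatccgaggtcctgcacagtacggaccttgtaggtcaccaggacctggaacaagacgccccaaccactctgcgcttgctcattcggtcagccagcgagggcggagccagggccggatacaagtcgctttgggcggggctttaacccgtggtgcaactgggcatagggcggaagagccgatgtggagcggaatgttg

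The windows of Cenpe, Ube2c and Ccnb2, the genes with the highest differences, and that of Cdk1, which had one of the lowest, all held both elements. Ccnb2 and Cdk1, which encode a cyclin and its partner kinase, had the same make-up of 2 CHR matches and 3 CCAAT matches, and their differences had opposite signs. Neither element was found in the windows of Melk and Mad2l1. The 23 measured genes with a CHR match had a median log2 difference of 0.01 and a range of -0.30 to 0.37, and the 6 without had a median of -0.03 and a range of -0.27 to 0.19, so the 2 ranges overlapped over most of their length.

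Trem2 itself fell in the TREM2-/- AM, from log2 values of 9.58 and 9.74 on the WT arrays to 7.64 and 7.45 (difference -2.11, limma adjusted p = 0.0009). The arrays had much the same correlation within a genotype (r = 0.9937 for WT, 0.9947 for TREM2-/-) as between genotypes (0.9922 to 0.9932). Of 15 markers of AM, all were above the lower quartile of the arrays and 2 rose, Car4 by 0.90 and Fabp1 by 0.74 (limma adjusted p = 0.0353 and 0.0453). Over the 15, 6 differences were positive and 9 negative, with a median of -0.02. Without overlap 5 were higher and 7 lower, beside 17.4% and 25.4% of all genes. With an intensity trend and robust variance limma called 4 higher and 2 lower, beside 1.9% and 1.45% of all genes. Of 14 markers of monocytes or interstitial macrophages, 9 rose and 0 fell at a limma adjusted p below 0.05, beside 0.431% and 0.135% of all genes. Pf4 (1.98), Apoe (1.67), Tmem176b (1.26) and H2-Ab1 (1.08) had the largest rises among the 9. The summed linear signal of the 14 was 12980 and 13310 on the WT arrays and 21470 and 20930 on the TREM2-/- arrays. AM can express many of these genes themselves. The part of other cells in the results below was not tested.

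All 34 mitosis and G2/M genes were above the lower quartile of every array (4.39 to 4.40), with values between 6.22 and 10.83. Most genes on the arrays lay above that quartile too, and the values carry no detection call, so this is no measure of how many cells were dividing. Mki67, the nuclear protein by which cycling cells are commonly counted, was at 8.78 and 8.86 in WT AM and at 8.98 and 9.05 in TREM2-/- AM. Top2a, the topoisomerase that untangles sister chromatids, was at 9.18 and 9.11 against 9.09 and 9.12. Cdk1, the kinase that drives entry into mitosis, was at 8.38 and 8.52 against 8.12 and 8.19. The TREM2-/- arrays were both higher for Mki67, both lower for Cdk1, and overlapped the WT arrays for Top2a. None of these 3 textbook markers of proliferating cells passed the test (limma adjusted p = 0.406, 0.277 and 0.882), and differences between the genes were not tested.

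No mitosis or G2/M gene passed the test between genotypes. At a limma adjusted p below 0.05 over all 19946 genes, 0 of the 34 were higher and 0 were lower, beside 0.431% of all genes higher (86) and 0.135% lower (27). SAM, the test named in the study's methods, called 0 of the 34 as well. At an unadjusted limma p below 0.05, 5 genes were higher (14.7%, beside 4.64% of all genes) and 5 were lower (14.7%, beside 6.9%). The median difference of the 34 was -0.01, beside -0.02 over all genes, and 15 differences were positive and 19 negative (55.9% negative, beside 57.3% of all genes). When each array was centred on its median, 18 were positive and 16 negative, and without WT replicate 1 the split was 21 positive and 13 negative. The limma adjusted p values of the 34 ran from 0.157 to 0.997.

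**Figure D1:**
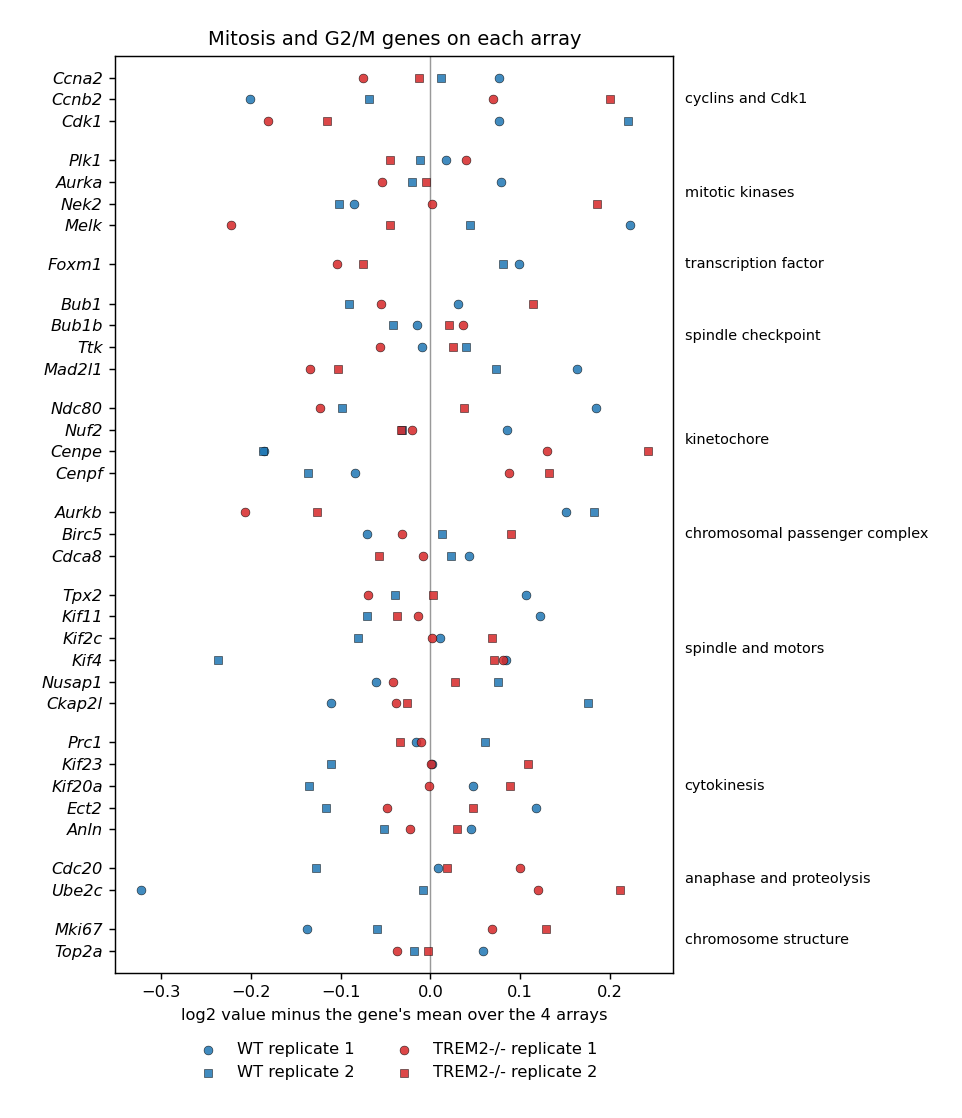
Log2 value of each of the 34 mitosis and G2/M genes on each array, minus the gene's mean over the 4 arrays (horizontal axis, log2 units); blue points are WT AM, red points TREM2-/- AM, circles replicate 1 and squares replicate 2, with genes grouped by role. Blue and red points overlap for 19 genes, are separated with red to the right for 8 and to the left for 7.

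The arrays bounded the differences only in part. The 95% intervals of the limma differences, taken gene by gene without adjustment, reached at most 0.61 from 0, so all 34 lay within a log2 difference of 1, and 33 lay within a fold of 1.5, Ube2c being the exception. The intervals reached 0.17 to 0.28 to either side of the difference, so shifts of the size of most differences measured here, or of a median of -0.24 such as that of the DNA replication genes described below, could not be resolved for many of the genes. The median size of the difference was 0.08, the same as over all genes, and the median gap between replicates of one genotype was 0.10 for WT and 0.07 for TREM2-/-. For 14 genes (41.2%) the difference was larger than the gap between replicates in both genotypes, beside 30.1% of all genes. For any one gene, the smallest two-sided p that an exact permutation of 2 arrays against 2 allows is 0.333. The arrays of the genotypes did not overlap for 15 genes, 8 higher in TREM2-/- AM (23.5%, beside 17.4% of all genes) and 7 lower (20.6%, beside 25.4%). With 34 genes, both shares were near those of all genes, and the differences between the shares were not tested.

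The summed linear signal of the 34 genes was 11430 and 11100 on the WT arrays and 11110 and 11480 on the TREM2-/- arrays. The 2 genotypes thus covered the same range, and the arrays of one genotype differed by as much as those of different genotypes. The median deviation of the genes from their own means was 0.04 on WT replicate 1, -0.04 on WT replicate 2, -0.02 on TREM2-/- replicate 1 and 0.02 on TREM2-/- replicate 2. No array stood apart in these genes.

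Among the cyclins and Cdk1 the differences had both signs, and none passed the test. Ccnb2, a B-type cyclin that binds Cdk1, had 9.18 and 9.31 in WT AM and 9.45 and 9.58 in TREM2-/- AM, a difference of 0.27 (95% interval 0.06 to 0.48, limma adjusted p = 0.343). Cdk1 had a difference of -0.30 (-0.50 to -0.09, limma adjusted p = 0.277). Ccna2, the cyclin of S phase and early mitosis, had 9.39 and 9.32 against 9.23 and 9.30, a difference of -0.09 (limma adjusted p = 0.713). The 2 TREM2-/- arrays were above both WT arrays for Ccnb2 and below both for Cdk1 and Ccna2.

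Of the mitotic kinases, Plk1 and Aurka, which govern centrosome maturation and mitotic entry, differed by -0.01 and -0.06, and their arrays overlapped. Nek2, which separates the centrosomes, had 7.04 and 7.03 in WT AM and 7.13 and 7.31 in TREM2-/- AM (difference 0.19, limma adjusted p = 0.489). Melk, a kinase of proliferating cells, had 8.00 and 7.82 against 7.56 and 7.74 (difference -0.27, limma adjusted p = 0.4). The arrays of Nek2 and Melk did not overlap between genotypes, and lay on opposite sides. Foxm1, the transcription factor that drives many of the other genes at G2/M, had 7.27 and 7.25 against 7.07 and 7.10 (difference -0.18, 95% interval -0.35 to -0.01, limma adjusted p = 0.416). Both TREM2-/- arrays were below both WT arrays, and the replicates of Foxm1 were within 0.02 in WT and 0.03 in TREM2-/- AM.

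The spindle checkpoint holds back anaphase until all chromosomes are attached. Mad2l1, which encodes the inhibitor of Cdc20 in this checkpoint, had 9.77 and 9.68 in WT AM and 9.48 and 9.51 in TREM2-/- AM (difference -0.24, 95% interval -0.42 to -0.05, limma adjusted p = 0.336). The other 3 checkpoint genes differed by less: Bub1b, the BubR1 kinase, by 0.06, the kinase Bub1 by 0.06 and the kinase Ttk by -0.03. For Bub1b the 4 arrays lay within 10.75 to 10.83 and still did not overlap, so absence of overlap marks small gaps as well as wide ones.

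The kinetochore genes held the largest difference of the 34. Cenpe, the kinesin that moves chromosomes towards the spindle equator, had 7.10 on both WT arrays and 7.42 and 7.53 on the TREM2-/- arrays, a difference of 0.37 (SE 0.08, 95% interval 0.18 to 0.56, unadjusted p = 0.00272 and adjusted p = 0.157 by limma). Cenpf, a large protein of the outer kinetochore, had 6.72 and 6.67 against 6.89 and 6.94 (difference 0.22, 95% interval 0.04 to 0.40, limma adjusted p = 0.348). Both genes were higher on each TREM2-/- array than on either WT array. Ndc80 and Nuf2, which together form the arm of the kinetochore that grips microtubules, differed by -0.09 and -0.05 with overlapping arrays. Ndc80 lies on chromosome 17, as Trem2 does.

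In the chromosomal passenger complex, which corrects faulty attachments and guides cytokinesis, no gene passed the test. Aurkb, the catalytic subunit, had 8.31 and 8.34 in WT AM and 7.96 and 8.04 in TREM2-/- AM, the most negative difference of the 34 (-0.33, SE 0.07, 95% interval -0.51 to -0.15, unadjusted p = 0.0039 and adjusted p = 0.175 by limma). Birc5, which encodes survivin, had 7.07 and 7.16 against 7.11 and 7.24, a difference of 0.06, and Cdca8, which encodes borealin, had 7.13 and 7.11 against 7.08 and 7.03, a difference of -0.07. The TREM2-/- arrays of Aurkb and Cdca8 were both below the WT arrays, and those of Birc5 overlapped them.

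The genes of the spindle and its motors differed little. Kif11, which pushes the spindle poles apart, differed by -0.05, Tpx2, which activates Aurka on the spindle, by -0.07, and Kif2c, which takes microtubules down at the kinetochore, by 0.07. The chromokinesin Kif4 differed by 0.15, with WT replicate 2 at 6.67 and the other 3 arrays between 6.98 and 6.99. Nusap1, which bundles spindle microtubules, differed by -0.01 and Ckap2l, a spindle protein, by -0.06. The arrays of all 6 overlapped between genotypes, and their limma adjusted p values were 0.672 or more.

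The 5 cytokinesis genes likewise had overlapping arrays. Prc1, which bundles the microtubules of the central spindle, differed by -0.04, the kinesin Kif23 by 0.11 and the kinesin Kif20a by 0.09. Ect2, which activates RhoA at the cleavage furrow, differed by -0.00, and Anln, a scaffold of the contractile ring, by 0.01. The signs of Plk1, Nusap1 and Ect2 turned when the arrays were centred on their medians, and carry no direction.

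Both genes of mitotic proteolysis were higher without overlap. Ube2c, the ubiquitin-conjugating enzyme of the anaphase-promoting complex, had 6.85 and 7.17 in WT AM and 7.29 and 7.39 in TREM2-/- AM (difference 0.33, 95% interval 0.05 to 0.61, limma adjusted p = 0.375). Cdc20, its activator in mitosis, had 7.54 and 7.41 against 7.63 and 7.55 (difference 0.12, limma adjusted p = 0.645). The gap between the WT arrays of Ube2c, 0.31, was nearly as wide as the difference between the genotypes. That of Cdc20, 0.14, was wider than its difference, and its arrays nearly met, at 7.54 in WT AM and 7.55 in TREM2-/- AM. Of the chromosome structure genes, Mki67 differed by 0.20 (95% interval 0.01 to 0.38, limma adjusted p = 0.406) and Top2a by -0.04 (limma adjusted p = 0.882).

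**Figure D2:**
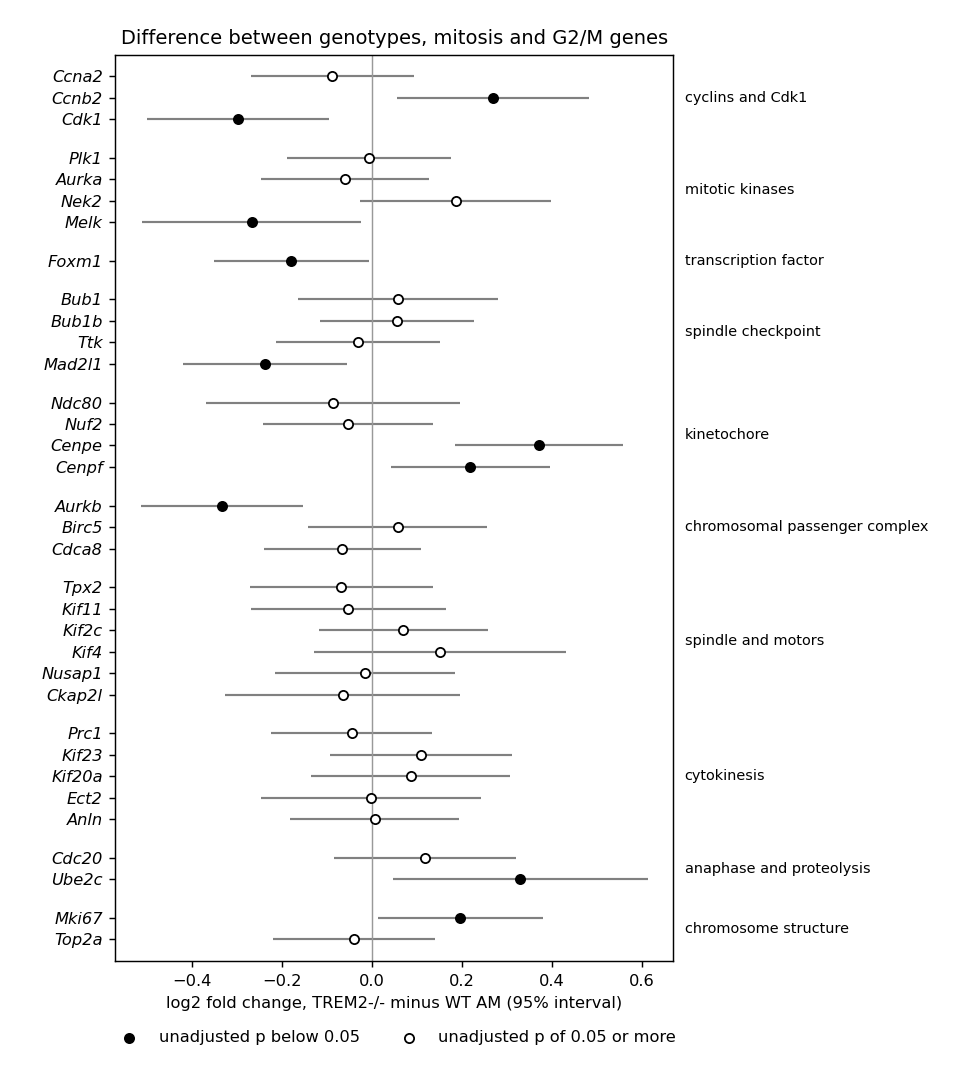
Difference of the mean log2 value, TREM2-/- minus WT AM, of each mitosis and G2/M gene with its 95% interval from limma (horizontal axis, log2 fold change); filled points have an unadjusted p below 0.05, which held for 10 genes. The intervals of Cenpe, Ube2c, Ccnb2, Cenpf and Mki67 lie above 0, those of Aurkb, Cdk1, Melk, Mad2l1 and Foxm1 below 0, and those of the other 24 include 0.

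The 10 genes with an unadjusted p below 0.05 were split evenly by direction and came from most of the roles. The higher genes were Cenpe, Ube2c, Ccnb2, Cenpf and Mki67, and the lower ones Aurkb, Cdk1, Melk, Mad2l1 and Foxm1. Differences of the other 24 lay between -0.09 and 0.19, with limma adjusted p values of 0.489 or more. Whether a gene passed depended on the variance model: with an intensity trend and robust variance, limma called 2 of the 34 higher (5.88%, beside 1.9% of all genes), Cenpe (adjusted p = 0.0281) and Ccnb2 (0.0443), and 3 lower (8.82%, beside 1.45%), Aurkb (0.0211), Mad2l1 (0.0418) and Cdk1 (0.0477). When any 1 array was left out, 0 of the 34 passed in limma, and 1 to 3 genes in each direction had an unadjusted p below 0.05. The lowest counts were 1 higher without TREM2-/- replicate 2 and 1 lower without TREM2-/- replicate 1.

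Other genes of mitosis had no calls either. Of 70 further genes of the mitotic apparatus, 0 were called higher and 0 lower at a limma adjusted p below 0.05 (SAM called 0). At an unadjusted limma p below 0.05, 4 of the 70 were higher and 9 lower, beside 4.64% and 6.9% of all genes. The arrays of 12 of the 70 were higher without overlap and those of 26 lower, beside 17.4% and 25.4% of all genes. More lay on the lower side than among the mitosis and G2/M genes described above, a difference that was not tested. The median difference of the 70 was -0.04, with 28 positive and 42 negative (60% negative, beside 57.3% of all genes). Arhgap11a, the gene of this list with the highest signal, differed by 0.06. With the trend and robust variance limma called Hmmr, a spindle protein, higher by 0.37 (adjusted p = 0.0447) and 3 genes lower: the kinase Pbk by -0.50 (0.00807), the centromere protein gene Cenpi by -0.41 (0.025) and the condensin subunit gene Ncapg2 by -0.37 (0.0136). These 4 genes were named after their values were seen, and their adjusted p values without the trend were 0.164, 0.1, 0.131 and 0.178. The 14 subunits of the anaphase-promoting complex, the ubiquitin ligase that Cdc20 and Ube2c work with, had 0 calls, 0 genes at an unadjusted p below 0.05 in limma, 0 calls in SAM and a median of -0.00, with Anapc5 at -0.01.

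Regulators of the mitotic genes had differences in both directions. A list of 18 genes held members of the DREAM complex, MuvB and the B-Myb module, and also E2f7, an E2F factor outside them. Of these 18, 0 passed in limma (0 in SAM). At an unadjusted limma p below 0.05, 3 were lower, beside 6.9% of all genes. The median was -0.02, with 9 positive and 9 negative and a range of -0.39 to 0.21. The lowest was E2f7, a repressor of the E2F family picked after its values were seen (-0.39, limma adjusted p = 0.169, and 0.0435 with the trend and robust variance). Rbbp4, a MuvB subunit and the gene with the highest signal, differed by -0.11 (limma adjusted p = 0.616), and Mybl2, which encodes B-Myb and was picked after its values were seen, by -0.26 (limma adjusted p = 0.569). Of 14 cell cycle inhibitors 0 passed in limma and 2 were higher at an unadjusted p below 0.05, beside 4.64% of all genes. Their median was -0.02, and Btg1, the one with the highest signal, differed by -0.03. Gadd45a, a stress-induced inhibitor picked after its values were seen, differed by 0.43 (limma adjusted p = 0.0906, and 0.00205 with the trend and robust variance), and it was the 1 inhibitor that SAM called.

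DNA replication genes gave other values. The list held 58 genes of origin licensing, the replication fork and nucleotide supply. At a limma adjusted p below 0.05, 5 of them fell and 0 rose, beside 0.135% and 0.431% of all genes. Uhrf1, which carries DNA methylation through replication, had 7.87 and 7.80 in WT AM and 7.17 and 7.05 in TREM2-/- AM (difference -0.73, limma adjusted p = 0.0235). Mcm2, a subunit of the replicative helicase, had 8.34 and 8.33 against 7.67 and 7.60 (-0.70, limma adjusted p = 0.0197). The others were Cdc6, which loads the helicase (-0.66, limma adjusted p = 0.0486), Mcm6, another helicase subunit (-0.58, 0.0366), and Rrm2, a ribonucleotide reductase subunit outside the naming rule (-0.55, 0.0486). Uhrf1 lies on chromosome 17, as Trem2 does. SAM called 2 of the 58. With the trend and robust variance limma called 14, all lower, beside 1.45% of all genes called lower. The 5 calls fell to 0 when any of the 4 arrays was left out, which leaves a genotype with 1 array and lowered the calls over all genes from 113 to between 28 and 49. The differences of the 5 genes then lay between -0.79 and -0.51.

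Most of the replication genes pointed one way without passing alone. At an unadjusted limma p below 0.05, 31 of the 58 were lower and 0 higher, beside 6.9% and 4.64% of all genes. The arrays of 48 were lower without overlap and of 0 higher, beside 25.4% and 17.4% of all genes. In all, 57 of 58 differences were negative (98.3%, beside 57.3% of all genes). The median was -0.24, a WT level 1.18 times that of TREM2-/- AM, and it stayed between -0.25 and -0.19 when any array was left out. The summed linear signal was 19720 and 19070 in WT AM and 16170 and 16440 in TREM2-/- AM, whereas that of the mitosis and G2/M genes overlapped. The difference between the lists was not tested. The direction of some of these replication genes was known when the list was chosen, so their count is no independent support.

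**Figure D3:**
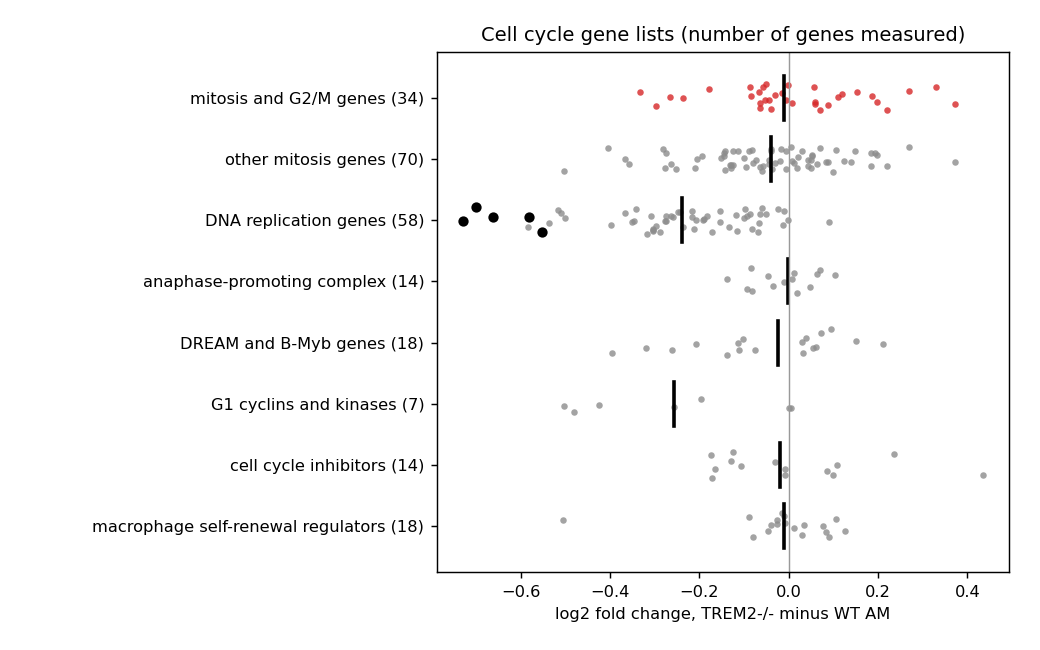
Difference of the mean log2 value, TREM2-/- minus WT AM (horizontal axis, log2 fold change), of every measured gene of 8 cell cycle lists, with the number of genes in brackets; vertical bars are the list medians, red points the mitosis and G2/M genes, and large black points genes with a limma adjusted p below 0.05. The mitosis and G2/M genes lie on both sides of 0 with a median of -0.01, and 57 of the 58 DNA replication genes lie below 0.

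Upstream of both phases, a list of 7 genes held the D-type cyclins, the kinases of G1 and Myc. It had 0 calls in limma and 0 in SAM, and a median of -0.26. At an unadjusted limma p below 0.05, 5 of the 7 were lower, beside 6.9% of all genes. With the trend and robust variance limma called 4 of the 7 lower, beside 1.45% of all genes. These were Ccnd2 (adjusted p = 2e-05), Myc (0.00132), Ccnd1 (0.032) and Cdk6 (0.0473). Ccnd2, a D-type cyclin and the gene of this list with the highest signal, had 10.82 and 10.80 in WT AM and 10.32 and 10.29 in TREM2-/- AM (difference -0.50, limma adjusted p = 0.0576). Myc differed by -0.48 (limma adjusted p = 0.0937), Ccnd1 by -0.42 (limma adjusted p = 0.164) and Cdk6 by -0.26 (limma adjusted p = 0.355), all 3 picked after their values were seen. Cdk2 differed by -0.20 (limma adjusted p = 0.416). The D-type cyclin gene Ccnd3 and the kinase gene Cdk4 differed by only 0.0051 and 0.0009, and their arrays overlapped between genotypes. Cdk2, Ccnd3 and Cdk4 were named after their values were seen as well. Of 18 regulators of macrophage self-renewal, such as the receptors for the growth factors that maintain AM, 0 passed in limma (0 in SAM) and 1 was lower at an unadjusted p below 0.05, Egr2 (-0.51, limma adjusted p = 0.0578, and 4.41e-05 with the trend and robust variance), a transcription factor of macrophages picked after its values were seen. Csf1r, the receptor of the macrophage growth factor CSF-1, had 12.47 and 12.44 against 12.61 and 12.55 (difference 0.13, limma adjusted p = 0.57). The median of the list was -0.01.

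Lymphocytes and other cells of a lavage can also divide. Of 13 markers of T and NK cells 0 passed in limma (1 at an unadjusted p below 0.05, 0 in SAM), and their summed signal was 4341 and 4235 in WT AM and 4050 and 4187 in TREM2-/- AM. Of 8 B cell markers 0 passed in limma (0 at an unadjusted p below 0.05, 0 in SAM), with sums of 309.7 and 301.3 against 321.8 and 311.2. Of 13 neutrophil markers 0 passed in limma (4 at an unadjusted p below 0.05, all higher, 1 in SAM), with sums of 988.3 and 965.9 against 1103 and 1131. Of all genes, 4.64% were higher and 6.9% lower at an unadjusted limma p below 0.05. At an adjusted p below 0.05 the shares were 0.431% and 0.135%. On both TREM2-/- arrays the T and NK cell sums were lower than in WT AM, and the B cell and neutrophil sums were higher. The B cell sums nearly met, at 309.7 and 311.2. Of these markers, 4 of T and NK cells, 2 of B cells and 3 of neutrophils had a mean below the lower quartile of the arrays. Most of the T and NK cell sum came from Cd2, at 11.86 and 11.82 in WT AM and 11.76 and 11.81 in TREM2-/- AM. Among 16 markers of lung epithelium, Cldn18 (1.23) and Scgb1a1 (0.91) rose and 0 fell in limma, SAM called 5, and 11 differences were positive and 5 negative (-0.45 to 1.23, median 0.14). Among 4 erythroid markers Alas2 (1.44) rose in limma and was the 1 call of SAM, and 2 of the 4 differences were negative (median -0.02). The 9 dendritic cell markers and the 10 markers of fibroblasts and endothelium had 0 calls in limma and SAM, with 2 and 0 genes at an unadjusted p below 0.05. The genes with the highest signal in the lists without a call differed by -0.06 (Cd2, T and NK cells), 0.09 (Cd79b, B cells), 0.21 (Mmp8, neutrophils), -0.34 (Clec9a, dendritic cells) and -0.08 (Col1a1, fibroblasts). The part of these cells in the values of the mitosis and G2/M genes was not tested.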

How the data were processed

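RNA of WT and TREM2-/- AM was hybridised by the authors to Affymetrix Gene 1.0 ST arrays, 2 per genotype. The deposited values are log2 signals that the authors normalised by RMA, which corrects background, makes the arrays equal in distribution and summarises the probes of each probe set. The submitters' processing notes name RMA, and their build was mm9. RMA gives no detection call and compresses small differences of dim genes. The scanner files were not used here, and no scan batch was given in the sources used here.

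Of 35557 probe sets, 21797 had 1 gene symbol in the platform annotation, 1613 had several and 12147 were not listed, and 21698 matched a RefSeq gene. Where a gene had several probe sets (999 genes, among the mitosis and G2/M genes Top2a alone), the one with the highest mean over the 4 arrays was kept. Differences were fitted with limma 3.58.1 (lmFit and eBayes, no block) in R 4.3.3 and adjusted by Benjamini-Hochberg over 19946 genes, with a threshold of 0.05. The procedure was run on simulated data with added differences larger than any of the mitosis and G2/M genes, so it says nothing about differences of their size. Alternatives were SAM at a false-discovery rate of 5% over the 6 assignments of the arrays, the replicate block, robust variance with an intensity trend, quantile normalisation, centring on the array median, a mean log2 value of at least 6, the mean of the probe sets, and leaving out each array. Promoter windows came from RefSeq (GRCm38.p6). The number of arrays limits the precision.

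All mitosis and G2/M genes were named, with Trem2 and, of every other list, up to 4 genes past the threshold with the largest change, or the gene with the highest signal where none passed. Other genes are marked as named after their values were seen. The genes and lists were chosen with earlier results of these data known.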

Additional observations from a re-analysis of the deposited data

How the results depend on the processing

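Trem2 stayed lower under every alternative (-2.21 to -2.02 when an array was left out). Of 374 combinations of a mitosis or G2/M gene with an alternative, 344 kept direction and side of the threshold, 7 moved past it, 0 moved back and 23 turned direction. For the 34 genes, 0 passed in either direction with SAM, quantile normalisation, centring, the mean of probe sets, the replicate block or any array left out. The trend with robust variance gave 2 higher and 3 lower, and the filter at 6, which tests fewer genes, 1 higher (Cenpe) and 1 lower (Aurkb). At an unadjusted p below 0.05 the counts of 5 and 5 became 5 and 3 after centring, and 1 to 3 higher and 1 to 3 lower with an array left out. Without overlap, the 8 higher and 7 lower became 9 to 16 higher and 10 to 16 lower with an array left out, since fewer arrays overlap less. For these counts and those at an unadjusted p, the shares of all genes with an array left out are not given. The counts are therefore no result about the 34 genes. The median difference stayed between -0.04 and 0.03. Further mitosis genes had 4 calls with the trend and 5 with the filter. DNA replication genes (5 calls) had 2 with SAM, 14 with the trend, 12 with the filter and 0 to 0 with an array left out. All genes (113 calls) had 191 with SAM, 669 with the trend, 357 with the filter and 28 to 49 with an array left out. The cause of these shifts was not tested. The labels do not say whether same-numbered arrays were handled together. Deviations of same-numbered arrays correlated over genes at r = -0.05168, which with 2 arrays per genotype cannot decide it. With the replicate block limma called 129 genes, 4 of them replication genes and 0 mitosis and G2/M genes, and 4 of the 34 were higher and 4 lower at an unadjusted p below 0.05.

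Of the genes that turned, Kif4 had a difference of 0.15 and turned without WT replicate 2. After centring Plk1 was at 0.0102, Nusap1 at 0.0014 and Ect2 at 0.0147 (0.0101 after quantile normalisation). With an array left out, the log2 difference of Plk1 ran from -0.048 to 0.0363, of Bub1 from -0.0252 to 0.1433, of Ttk from -0.0711 to 0.0105, of Ndc80 from -0.2266 to 0.0553, of Nuf2 from -0.1123 to 0.0055 and of Birc5 from -0.003 to 0.1184. The range of Tpx2 was -0.1398 to 0.0056, of Kif11 -0.1481 to 0.0454, of Kif4 -0.0082 to 0.3126, of Nusap1 -0.0825 to 0.0532 and of Ckap2l -0.2072 to 0.079. That of Kif20a was -0.0041 to 0.1788, of Ect2 -0.1187 to 0.1159 and of Anln -0.0423 to 0.0553. All 14 had overlapping arrays in the full data. Signal over background cannot be given for these values, and 2 arrays per genotype limit what can be detected.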
